A study of Homo sapiens with 18 samples.

Results

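Transcripts of 9 genes of hepatic glucose production and sugar sensing were followed in HepG2 cells, a human liver line derived from a hepatoblastoma. The genes are the rows of the deposited count table that carry the symbols G6PC, PCK1, PCK2, FBP1, PKLR, GCKR, SLC2A2, MLXIPL and TXNIP, and all 9 were present among its 35238 rows. They were picked by symbol, with no cutoff on a measured value, but earlier results of these data were known by then. The study examined ligands of LRH-1, a nuclear receptor of liver and gut encoded by NR5A2, by sequencing the RNA of treated cells. Its 18 libraries fell into 6 groups of 3: the phospholipid DLPC (dilauroylphosphatidylcholine) at 100 µM, the vehicle ethanol at 0.1%, 3 small molecules named 6N-10CA, 10CA and 6N, given at 10 µM, and the vehicle DMSO at 0.1%. All groups were HepG2 cells kept in DMEM with charcoal-stripped serum while they were treated, and the labels name no genetic change in any group. The sources used here do not give the glucose content of the medium, the length of treatment or the vehicle of each compound. From knowledge of the study, the small molecules were set against DMSO and DLPC against ethanol.

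Hepatocytes make glucose from lactate, amino acids and glycerol, and the rate is set in part by how strongly the genes of the pathway's committed steps are transcribed. Glucagon and glucocorticoids raise the transcription of PCK1 and G6PC in liver, and insulin lowers it through FOXO1. The opposite branch, in which sugar is taken up, burnt and turned into fat, is controlled by ChREBP, the factor encoded by MLXIPL, which pairs with MLX, is activated by phosphorylated sugars and binds carbohydrate response elements in genes such as PKLR and TXNIP.

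Each library held between 28135967 and 34992442 counts in total. Levels are CPM, the share of a library's counts scaled to a common total, after TMM scaling, which corrects for differences in composition between libraries. A floor of 3 counts was worth 0.0857 to 0.107 CPM. All 12 hepatocyte markers examined, among them ALB, APOA1, AFP and TF, were expressed, with summed levels of 59870 to 75510 CPM per library. Of 6 markers of pancreatic beta cells and kidney tubule, tissues that also use some of these genes, the summed level did not exceed 0.759 CPM in any library. NR5A2 itself lay between 3.11 and 5.17 CPM. In bulk RNA a change in the RNA per cell and a change in the share of cells that express a gene cannot be told apart. The labels do not say whether the 3 libraries of a group came from separate cultures, so the p-values speak only to the spread among these samples, which may be technical.

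The promoters of PKLR, TXNIP and SLC2A2 are printed because PKLR and SLC2A2 carried the differences that passed the test and TXNIP is the other classic ChREBP target of the set. Each run holds the 250 bases before a RefSeq start (GRCh38.p14), read 5′ to 3′ on the gene's minus strand, with matches to the motifs searched in capitals. PKLR is shown for the downstream of its 2 RefSeq starts, the one used in liver (chr1:155300953-155301202), TXNIP for the upstream of 2 (chr1:145996580-145996829) and SLC2A2 for its single start (chr3:171026721-171026970).
PKLR: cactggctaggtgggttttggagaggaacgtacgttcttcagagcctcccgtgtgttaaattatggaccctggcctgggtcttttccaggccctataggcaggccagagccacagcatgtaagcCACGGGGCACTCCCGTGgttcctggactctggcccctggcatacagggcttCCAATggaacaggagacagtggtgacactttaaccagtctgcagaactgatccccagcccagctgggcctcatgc
TXNIP: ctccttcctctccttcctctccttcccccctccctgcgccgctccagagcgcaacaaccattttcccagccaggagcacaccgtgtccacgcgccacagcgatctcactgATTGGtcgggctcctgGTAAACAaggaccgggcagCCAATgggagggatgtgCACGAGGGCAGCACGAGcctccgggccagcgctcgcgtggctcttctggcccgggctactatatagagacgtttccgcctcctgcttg
SLC2A2: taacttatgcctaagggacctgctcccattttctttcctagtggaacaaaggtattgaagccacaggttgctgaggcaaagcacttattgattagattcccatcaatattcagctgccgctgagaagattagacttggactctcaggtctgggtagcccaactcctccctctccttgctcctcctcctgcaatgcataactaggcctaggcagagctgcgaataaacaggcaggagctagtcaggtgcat

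In the PKLR promoter the capitals mark an inverted carbohydrate response element (CACGNG, 5 bases of any kind and CNCGTG) whose first base is at position -126 from the start, and a CCAAT box at -75. In the TXNIP promoter they mark a tandem carbohydrate response element (CACGNG, 5 bases of any kind and CACGNG) at -88, a FOXO-type site (GTAAACA) at -124, and CCAAT boxes at -105 and, on the opposite strand, at -140. Both strands were searched, and the matches in the TXNIP promoter do not overlap one another. The 2 element patterns were written from the known elements of these same genes, so finding them there is no result. Among 35116 RefSeq promoters of the same length the inverted pattern occurred in 7 (0.0199%), the tandem pattern in 16 (0.0456%), GTAAACA in 2.98% and CCAAT in 32% of promoters. The SLC2A2 run held none of the 6 patterns searched, which also included the E-box CACGTG (in 6.34% of promoters) and TGATGNAA, the composite site bound by ATF4 (in 3.14%). RefSeq promoters were matched for 8 of the 9 genes; PCK1 was not among them.

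The genes differed in abundance. Per kilobase of the longest principal transcript, the median over 18 libraries was 169 CPM for PCK2, the mitochondrial phosphoenolpyruvate carboxykinase, and 39.4 CPM for TXNIP, 38.2 CPM for PKLR, 25.7 CPM for MLXIPL, 22.9 CPM for SLC2A2 and 14.1 CPM for GCKR. On the same scale it was 8.22 CPM for G6PC, 2.30 CPM for PCK1, the cytosolic carboxykinase, and 0.654 CPM for FBP1. Per length, the mitochondrial carboxykinase was the more abundant of the pair in every library. The lowest PCK2 value was 152 CPM per kilobase, against a highest PCK1 value of 4.83 CPM per kilobase. FBP1, the bisphosphatase of gluconeogenesis, rested on 16 to 49 counts per library, and its fold changes are correspondingly loose.

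**Figure D1:**
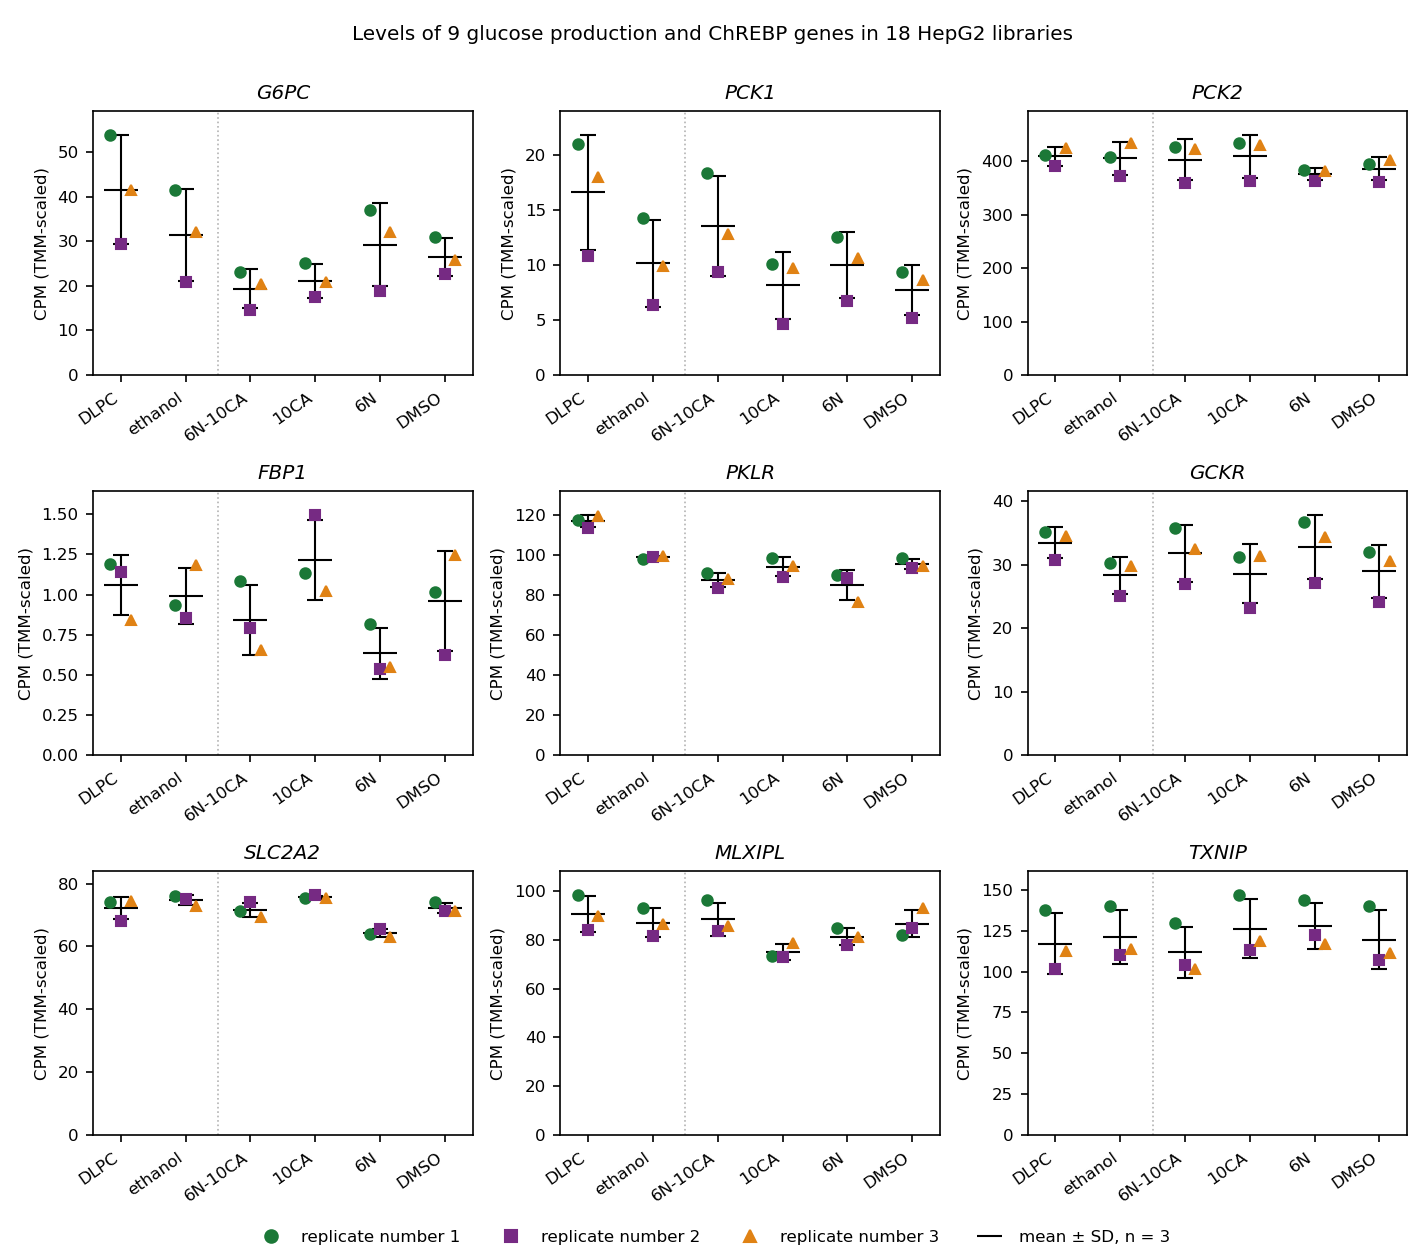
Level of each gene in CPM (TMM-scaled, vertical axis from 0) in each of the 18 libraries, by group, each compound left of its vehicle. Symbols stand for the replicate number and black bars for the mean ± SD (n = 3). PKLR in the DLPC libraries lies above every other library, SLC2A2 in the 6N libraries lies below every other library, and G6PC and PCK1 are highest in replicate 1 and lowest in replicate 2 of all 6 groups.

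Few of these differences between groups passed the test. Each comparison was made with edgeR's quasi-likelihood test over 14797 tested genes with Benjamini-Hochberg adjustment and a threshold of 0.05, the adjusted p given below. In DLPC against ethanol 1 of the 9 genes, PKLR, passed and was higher, where 1.04% of all tested genes passed in either direction. None passed in 6N against DMSO (1.14% of all tested genes), in 10CA against DMSO (0%) or in 6N-10CA against DMSO (0.264%). At an unadjusted p under 0.05 there were 2, 1 and 2 members in these 3 comparisons, and 1384, 1033 and 1466 of all tested genes. Against DMSO, DESeq2 called 1 member of 246 genes with 6N, 0 of 13 genes with 10CA and 0 of 173 genes with 6N-10CA. Between the small molecules, 1 member, SLC2A2, passed in 10CA against 6N and was higher (1.71% of all tested genes passed, 1.05% higher). With 6N-10CA, none passed against 6N (1.64%, with 1.12% higher and 0.514% lower) or against 10CA (0.23%, with 0.0338% lower). At an unadjusted p under 0.05 there were 2 members in each, of 2137 and 1243 genes, and DESeq2 called 1 member of 501 genes against 6N and 0 of 119 genes against 10CA.

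Libraries that share a replicate number resembled one another across treatments, in all of these comparisons except 6N against DMSO by the rule given with the processing. A paired fit, with the replicate number as a block, is therefore printed beside a result where it changes the call. In that fit 4 members passed in DLPC against ethanol (6.74% of all tested genes), 2 in 6N-10CA against DMSO (3.8%), 0 in 10CA against DMSO (0.216%), 4 in 6N-10CA against 6N (8.32%), 3 in 6N-10CA against 10CA (2.36%) and 3 in 10CA against 6N (7.66%). For 6N against DMSO and for the test over 6 groups, in which the same fit called 3.72% and 21.3% of all tested genes, its results are kept with the alternatives. Over all 6 groups at once, with no vehicle assigned, PKLR (adjusted p = 0.000308) and SLC2A2 (adjusted p = 0.0232) varied among groups in edgeR's test, where 5.23% of all tested genes did, and with the replicate block 7 of the 9 did. Leaving out 6N replicate 1 or 6N replicate 3 left 1 member past that threshold, of 579 and 728 genes.

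**Figure D2:**
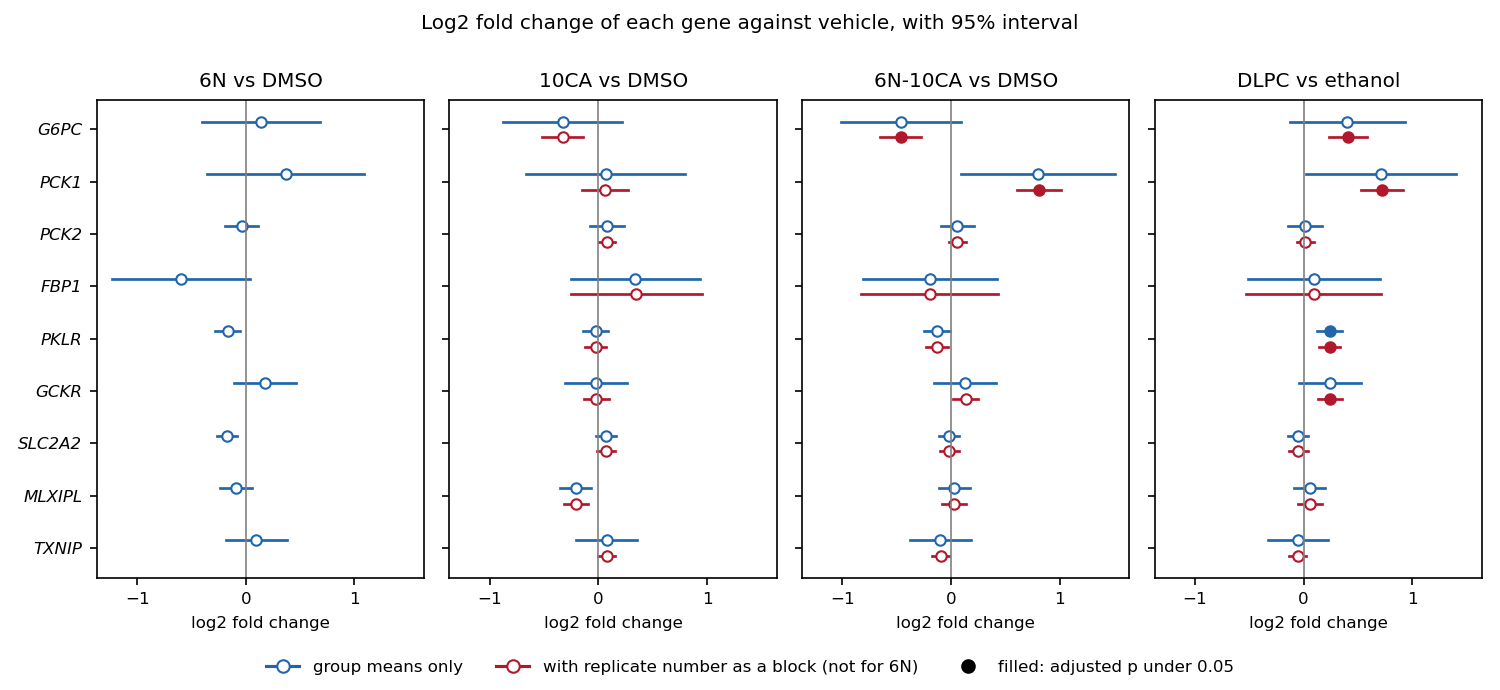
Log2 fold change (horizontal axis) of each gene in the 4 comparisons with a vehicle, with its 95% interval. Blue points come from the fit on group means, red points from the fit with the replicate number as a block, which is not drawn for 6N, and filled points have an adjusted p under 0.05. Only PKLR with DLPC is filled in blue; G6PC, PCK1 and GCKR with DLPC and G6PC and PCK1 with 6N-10CA are filled in red, where intervals are narrower around nearly the same estimates.

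G6PC, the catalytic subunit that releases free glucose in the last step of glucose production (GRCh38 chr17:42900797-42913369), was lower with 6N-10CA and higher with DLPC than with the vehicle in the fit that pairs replicate numbers, and not on group means. It had 23.1, 14.6 and 20.3 CPM in 6N-10CA libraries 1, 2 and 3, against 31.0, 22.7 and 25.8 CPM in DMSO libraries 1, 2 and 3. In DLPC libraries it had 53.7, 29.3 and 41.5 CPM, against 41.4, 20.8 and 32.1 CPM in ethanol libraries. The groups overlapped in both comparisons, but within each replicate number the 6N-10CA library was below its DMSO library and the DLPC library above its ethanol library. On group means neither difference passed, with log2 fold changes of -0.46 (SE 0.26, adjusted p = 0.5997) for 6N-10CA and 0.40 (SE 0.25, adjusted p = 0.541) for DLPC in edgeR's test. With the replicate number as a block they were -0.46 (SE 0.091, adjusted p = 0.00597) and 0.41 (SE 0.085, adjusted p = 0.00507). Without the libraries of number 1 the adjusted p for DLPC in that fit was 0.0506, whereas the 6N-10CA difference passed whichever number was left out.

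The other small molecules gave G6PC levels of 25.1, 17.5 and 20.8 CPM with 10CA and 36.9, 18.8 and 32.0 CPM with 6N. The 6N libraries lay on both sides of the DMSO libraries, while each 10CA library was below the DMSO library of its number. The log2 fold change against DMSO was -0.33 (95% interval -0.88 to 0.22) for 10CA and 0.14 (95% interval -0.40 to 0.68) for 6N, and neither passed. In the paired fit the 10CA value had a 95% interval of -0.52 to -0.14 and did not pass either (adjusted p = 0.134, edgeR). Between compounds at the same dose, G6PC was lower with 6N-10CA than with 6N by a log2 fold change of -0.60 (adjusted p = 0.294, edgeR), and in the paired fit by -0.58 (adjusted p = 0.000272). It was likewise lower with 10CA than with 6N, at -0.47 (adjusted p = 0.450) and -0.44 in the paired fit (adjusted p = 0.00318). Paired, the 6N-10CA difference from 6N passed whichever number was left out, and the 10CA difference did not pass without number 1 (adjusted p = 0.0922) or number 3 (0.0961). For 6N-10CA against 10CA the log2 fold change was -0.14 with an interval of -0.69 to 0.42, which does not show that these compounds acted alike. In the level order DLPC, ethanol, 6N, DMSO, 10CA and 6N-10CA, every neighbouring pair overlapped.

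PCK1, which makes phosphoenolpyruvate in the cytosol and is the classic hormone-controlled gene of gluconeogenesis (GRCh38 chr20:57561080-57568112), had the largest fold changes of the 9 genes with 6N-10CA and with DLPC. It had 18.4, 9.40 and 12.9 CPM in 6N-10CA libraries 1, 2 and 3, against 9.38, 5.15 and 8.67 CPM in DMSO libraries. In DLPC libraries it had 20.97, 10.9 and 17.98 CPM, against 14.2, 6.33 and 9.88 CPM in ethanol libraries. All 6N-10CA libraries were above all DMSO libraries, while the DLPC and ethanol libraries overlapped and each DLPC library was above the ethanol library of its number. On group means the log2 fold change was 0.80 for 6N-10CA (SE 0.34, 1.74-fold, adjusted p = 0.434) and 0.71 for DLPC (SE 0.33, 1.64-fold, adjusted p = 0.361), and neither passed edgeR's test. In the paired fit they were 0.81 (SE 0.096, adjusted p = 4.93e-05) and 0.72 (SE 0.093, adjusted p = 5.11e-05), and both passed whichever replicate number was left out. G6PC and PCK1 thus had fold changes of opposite sign with 6N-10CA and of the same sign with DLPC.

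Set against ethanol in place of DMSO, the PCK1 log2 fold change with 6N-10CA was 0.41, and in the paired fit 0.43 (adjusted p = 0.0111). The PCK1 estimate for ethanol against DMSO was 0.39 (95% interval -0.34 to 1.11). In the paired fit that estimate was 0.38 (95% interval 0.17 to 0.59) and did not pass (adjusted p = 0.209, edgeR). PCK1 had 10.1, 4.63 and 9.70 CPM with 10CA and 12.6, 6.74 and 10.7 CPM with 6N. Its log2 fold change against DMSO was 0.069 (95% interval -0.66 to 0.80) for 10CA and 0.37 (95% interval -0.36 to 1.09) for 6N. Between compounds, PCK1 was higher with 6N-10CA than with 6N in the paired fit (log2 fold change 0.44, adjusted p = 0.00511) and higher with 6N-10CA than with 10CA (0.75, adjusted p = 8.39e-05). The difference from 10CA passed whichever number was left out, and the difference from 6N did not pass without number 1 (adjusted p = 0.120) or number 2 (0.0631). The corresponding values on group means were 0.43 (adjusted p = 0.597) and 0.73 (adjusted p = 0.582). For 10CA against 6N it was -0.30 with an interval of -1.02 to 0.42. Paired, it was -0.31 with an interval of -0.52 to -0.105 and did not pass (adjusted p = 0.0597, edgeR).

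**Figure D3:**
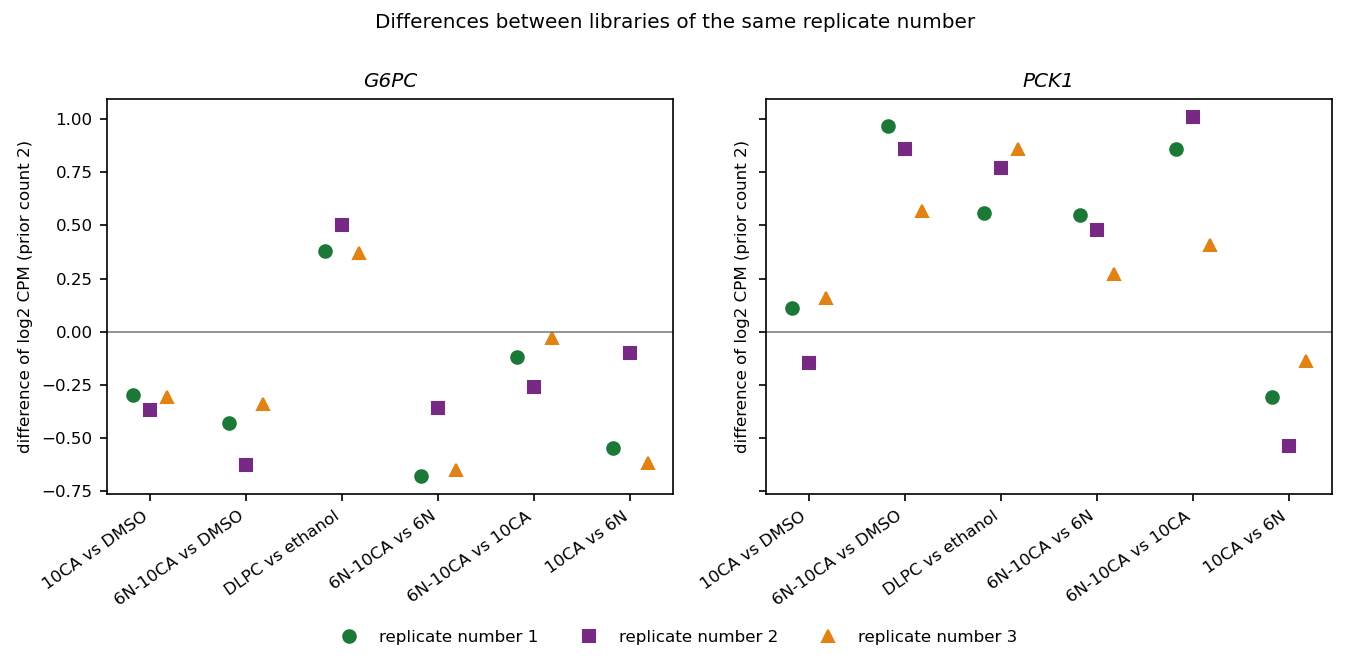
Differences of log2 CPM (prior count 2, vertical axis) in G6PC and PCK1 between libraries that share a replicate number, in 6 comparisons. Each comparison has 3 points, 1 per number. PCK1 differences are above 0 in 3 of 3 numbers for 6N-10CA against DMSO, 6N and 10CA and for DLPC against ethanol, and G6PC differences are below 0 in 3 of 3 for 6N-10CA and 10CA against DMSO and against 6N.

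The spread that separated these fits was shared by number. In 6 of 6 groups G6PC and PCK1 were each highest in replicate 1 and lowest in replicate 2. On the log2 scale replicate 1 lay 0.34 above its group mean for G6PC and 0.42 above for PCK1, on average over groups, and replicate 2 lay at -0.40 and -0.57. TXNIP was also highest in replicate 1 in 6 of 6 groups, by 0.22 on average, and GCKR and PCK2 were lowest in replicate 2 in 6 of 6 groups, at -0.22 and -0.11. PKLR and SLC2A2 deviated by at most 0.04 with any number. What the replicate number stands for is not given in the sources used here, and its source was not tested.

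PCK2, the mitochondrial carboxykinase and a target of the amino acid response factor ATF4 (GRCh38 chr14:24094053-24110598), stayed within a narrow range of 359 to 434 CPM over all 18 libraries. It averaged 403 ± 38.1 CPM with 6N-10CA, 409 ± 39.7 CPM with 10CA and 376 ± 10.6 CPM with 6N, against 386 ± 22.3 CPM with DMSO, and 409 ± 17.3 CPM with DLPC, against 405 ± 30.9 CPM with ethanol (SD, n = 3 each). None of its 95% intervals against vehicle reached beyond a log2 fold change of -0.20 or 0.24. FBP1 (GRCh38 chr9:94603133-94640249), which removes a phosphate from fructose bisphosphate, had 1.14, 1.49 and 1.02 CPM with 10CA and 0.816, 0.537 and 0.548 CPM with 6N. All 10CA libraries were above all 6N libraries, and the log2 fold change of 0.94 (SE 0.30) had an adjusted p of 0.129 in edgeR's test. In the other groups FBP1 lay between 0.623 and 1.24 CPM. An antisense gene, PCAT7, overlaps 16.3% of the exonic bases of FBP1, and reads of such a partner cannot be told apart where the strandedness of the libraries is not given.

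SLC2A2 encodes GLUT2, the transporter through which glucose enters and leaves the hepatocyte (GRCh38 chr3:170996348-171026750), and it was lowest with 6N. It had 71.1, 74.0 and 69.4 CPM with 6N-10CA and 75.4, 76.3 and 75.3 CPM with 10CA. In 6N libraries it had 64.1, 65.5 and 63.0 CPM, against 74.2, 71.3 and 71.3 CPM in DMSO libraries. Every 6N library was below every library of the other 5 groups, and the 10CA libraries were above those with DMSO. Against 6N, SLC2A2 rose with 10CA by a log2 fold change of 0.24 (SE 0.044, 1.18-fold, adjusted p = 0.00536 in edgeR's test), and it passed with each of the 6 libraries left out in turn. With the 10CA and 6N libraries alone in the fit, the adjusted p was 0.0724. Between the same groups 2 of 7 tested markers of stromal, endothelial and blood cells passed, LYZ (log2 fold change 0.32) and PDGFRB (0.62), and the sum over the list of 14 markers was 429 to 474 CPM with 10CA, against 375 to 412 CPM with 6N. Over all 18 libraries the highest medians in that list were 315 CPM for LYZ and 88.7 CPM for CD68. CDH5, PECAM1, PDGFRB and VWF had medians of 18.9, 13.3, 8.61 and 4.05 CPM. COL1A1, COL1A2, COL3A1, DCN, PTPRC and CD3E did not exceed 0.51 CPM in any library. KDR and HBB of that list had no counts, and the part of these markers in the SLC2A2 difference was not tested.

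Against DMSO the SLC2A2 log2 fold change with 6N was -0.17 (95% interval -0.26 to -0.078), which missed the threshold with an adjusted p of 0.0831 in edgeR's test. It passed with DESeq2 (adjusted p = 0.0252), with ethanol as the vehicle (-0.22, adjusted p = 0.0106) and with both vehicles averaged (-0.19, adjusted p = 0.00765). It missed with limma-voom (adjusted p = 0.0909). In edgeR's test it also missed without the low-count filter (0.274) and with only the 2 groups in the fit (0.282). The same held with any 1 of the 6 libraries left out (0.125 to 0.354). For 6N-10CA against 6N it was 0.16 (adjusted p = 0.0852), with an adjusted p of 0.0193 in the paired fit and of 0.0896 to 0.138 in that fit without 1 of the 3 numbers. With 10CA and with 6N-10CA it was 0.067 (95% interval -0.025 to 0.16) and -0.014 (95% interval -0.11 to 0.078) against DMSO. With DLPC SLC2A2 had 74.1, 68.0 and 74.6 CPM, against 76.0, 75.2 and 72.8 CPM with ethanol, overlapping groups with a log2 fold change of -0.048. In the order of levels only the step between 6N and its neighbour 6N-10CA was free of overlap.

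GCKR encodes a regulatory protein of hepatic sugar metabolism (GRCh38 chr2:27496842-27523684). It had 35.2, 30.7 and 34.5 CPM in DLPC libraries, against 30.2, 24.98 and 29.7 CPM in ethanol libraries. The groups did not overlap. The log2 fold change of 0.24 (SE 0.14) had an adjusted p of 0.484 on group means in edgeR's test and 0.00946 in the paired fit, where it missed the threshold whichever of the 3 numbers was left out (adjusted p = 0.0827 to 0.0974). With the small molecules GCKR averaged 31.8 ± 4.48 CPM (6N-10CA), 28.6 ± 4.66 CPM (10CA) and 32.7 ± 5.05 CPM (6N), against 28.9 ± 4.18 CPM with DMSO (SD, n = 3 each), and none passed. It was lower with 10CA than with 6N in the paired fit, at -0.20 (adjusted p = 0.0304), against an adjusted p of 0.569 on group means, and in the paired fit without 1 of the 3 numbers the adjusted p was 0.0981 to 0.249.

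MLXIPL, the gene of ChREBP (GRCh38 chr7:73593194-73624543), was lowest with 10CA. It had 96.1, 83.4 and 85.6 CPM with 6N-10CA and 73.2, 72.8 and 78.7 CPM with 10CA, against 81.9, 84.9 and 92.8 CPM with DMSO. The 10CA libraries lay below all libraries of both other groups. Against DMSO their log2 fold change of -0.21 (95% interval -0.35 to -0.065) had an adjusted p of 0.663 in edgeR's test of this comparison, in which no gene passed. MLXIPL was higher with 6N-10CA than with 10CA by a log2 fold change of 0.24, with an adjusted p of 0.250 on group means (edgeR) and 0.0181 in the paired fit, and in that fit it did not pass without number 1 (log2 fold change 0.16, adjusted p = 0.155) or number 2 (0.26, adjusted p = 0.158). With 6N it averaged 81.3 ± 3.44 CPM, against 86.6 ± 5.63 CPM with DMSO, and with DLPC 90.6 ± 7.22 CPM, against 87.0 ± 5.81 CPM with ethanol (SD, n = 3 each). The DLPC interval ran from -0.087 to 0.20.

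PKLR encodes the liver and red cell pyruvate kinase, the last step of glycolysis and a direct ChREBP target through the element printed above (GRCh38 chr1:155289293-155301438). It had 118, 114 and 119.7 CPM in DLPC libraries, against 98.2, 99.4 and 99.5 CPM in ethanol libraries. Every DLPC library was above every other library of the series. PKLR rose with DLPC by a log2 fold change of 0.24 (SE 0.056, 95% interval 0.13 to 0.36, 1.18-fold, adjusted p = 0.0413 in edgeR's test), with an adjusted p of 0.00281 in the paired fit. The call did not hold when any 1 of the 6 libraries was left out, with adjusted p-values of 0.0612 to 0.166 and fold changes of 0.22 to 0.26, nor with upper-quartile scaling (adjusted p = 0.0599), nor in the paired fit without the libraries of number 1 (adjusted p = 0.0556). Against DMSO the DLPC value was 0.29 (adjusted p = 0.00867).

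With the small molecules PKLR estimates were negative and none passed the test. It had 91.3, 83.9 and 88.0 CPM with 6N-10CA and 90.3, 88.8 and 76.7 CPM with 6N, against 98.7, 93.9 and 94.9 CPM with DMSO. Both groups lay wholly below the DMSO libraries. Their log2 fold changes were -0.13 (95% interval -0.25 to -0.011, adjusted p = 0.443) for 6N-10CA and -0.17 (95% interval -0.29 to -0.051, adjusted p = 0.261) for 6N in edgeR's test. With 10CA PKLR had 98.9, 89.3 and 94.7 CPM, a log2 fold change of -0.024. HCN3, a channel gene on the opposite strand, overlaps 17.6% of the exonic bases of PKLR. It had 13.3 to 17.6 CPM and a log2 fold change of 0.16 with DLPC (adjusted p = 0.488), while PKLR averaged 117 ± 3.06 CPM with DLPC and 99.0 ± 0.711 CPM with ethanol (SD, n = 3 each).

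TXNIP, a brake on glucose uptake and on thioredoxin and another direct ChREBP target (GRCh38 chr1:145992435-145996600), did not follow PKLR. It had 137, 101 and 112 CPM with DLPC, against 140.3, 109.9 and 114 CPM with ethanol. The groups overlapped almost wholly, with a log2 fold change of -0.051 (95% interval -0.33 to 0.23). TXNIP averaged 112 ± 15.6 CPM with 6N-10CA, 126 ± 18 CPM with 10CA and 128 ± 14.1 CPM with 6N, against 119.6 ± 17.9 CPM with DMSO (SD, n = 3 each). In the paired fit it was lower with 6N-10CA than with 6N, at a log2 fold change of -0.19 (adjusted p = 0.00235), and than with 10CA, at -0.17 (adjusted p = 0.0160). The difference from 6N passed whichever number was left out, and the difference from 10CA did not pass without number 1 (adjusted p = 0.148) or number 3 (0.224). On group means the same differences had adjusted p-values of 0.552 and 0.769.

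Between the vehicles themselves none of the 9 genes passed, and neither did any other tested gene (0% in edgeR's test, 0.122% with the replicate block). No member had an unadjusted p under 0.05, where 479 of all tested genes did, and DESeq2 called 0 members and 13 genes. The widest difference on the log2 scale was in PCK1, 0.39, with 14.2, 6.33 and 9.88 CPM with ethanol, against 9.38, 5.15 and 8.67 CPM with DMSO. All groups of the vehicles overlapped in all 9 genes, where 8.25% of tested genes did not overlap. By the same count, 2 members each did not overlap in 6N (13.6%), 10CA (12.8%) and 6N-10CA (14.8%) against DMSO and in DLPC against ethanol (19.2%). Between the small molecules it was 1 member in 6N-10CA against 6N (17.7%), 2 in 6N-10CA against 10CA (12.5%) and 2 in 10CA against 6N (16.7%). The median log2 fold change over the 9 genes was -0.039 for 6N, 0.067 for 10CA and -0.014 for 6N-10CA against DMSO and 0.096 for DLPC against ethanol, and over all tested genes it lay between -0.001 and 0.001 in these comparisons.

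Other genes of the same pathways were read from lists. Among 9 tested genes of fat synthesis that ChREBP shares with SREBP1, 7 fell with 6N against DMSO (0.845% of all tested genes fell) and none rose, with a median log2 fold change of -0.65. They included SREBF1 (149 ± 11.9 CPM with 6N, against 306 ± 15.8 CPM with DMSO, -1.04), FASN, the fatty acid synthase (-1.17), SCD, a desaturase (-0.81) and ACLY, which makes cytosolic acetyl-CoA (-0.48). In the same libraries the 14 stromal, endothelial and blood cell markers, of which KDR and HBB had no counts, summed to 375 to 412 CPM with 6N, against 432 to 453 CPM with DMSO. LYZ and CD68 had the highest levels of these markers, as given with SLC2A2. The median log2 fold change over the 7 markers tested was -0.29 with none past the threshold, and their part in the lipogenic difference was not tested. None of 14 tested ChREBP targets of sugar handling, such as KHK and ARRDC4, passed in that comparison, with a median of -0.047. PKLR, TXNIP and MLXIPL themselves had -0.17, 0.095 and -0.09. With 10CA and with 6N-10CA none of the 9 lipogenic genes passed against DMSO on group means. In the paired fit 0 passed with 10CA, and 2 rose and 0 fell with 6N-10CA. Against 6N, 7 of the 9 were higher with 10CA and 7 with 6N-10CA on group means (1.05% and 1.12% of all tested genes). Paired, it was 7 and 8. The sugar-handling target KHK was lower than with 6N on group means, at -0.26 with 10CA and -0.22 with 6N-10CA. BHLHE40 of the same list was higher, at 0.42 and 0.46. Paired, 2 of that list rose and 2 fell with 10CA, and 3 rose and 4 fell with 6N-10CA.

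With DLPC 3 of the 9 lipogenic genes rose against ethanol and none fell (0.629% and 0.412% of all tested genes), with a median of 0.32; in the paired fit 6 rose. The 3 were ANGPTL8, a feeding-induced regulator of lipoprotein lipase (176 ± 4.24 CPM with DLPC, against 112 ± 5.13 CPM with ethanol, log2 fold change 0.66), ACLY (0.33) and SCD (0.32). Of the 14 sugar-handling targets none passed on group means, and 3 rose and 2 fell in the paired fit. ARRDC4, an arrestin regulated much as TXNIP is, had 7.92 ± 0.525 CPM with DLPC, against 9.25 ± 2.66 CPM with ethanol (adjusted p = 0.712, edgeR). None of the 10 tested partners of ChREBP in the MLX and MAX network passed on group means in any of the 8 comparisons. In the paired fit 0 rose and 1 fell in DLPC against ethanol, and likewise 0 rose and 1 fell in 6N-10CA against DMSO.

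In the gluconeogenesis list 18 of 22 genes were tested. GPD1, which links glycerol to glucose and fat synthesis and is also held in the sugar-handling list, was the 1 that passed against a vehicle on group means, and it fell with 6N-10CA. It had 57.3 ± 3.74 CPM with 6N-10CA, against 77.8 ± 2.33 CPM with DMSO (SD, n = 3 each), a log2 fold change of -0.44 (adjusted p = 0.0152, edgeR). It was also lower than with 6N (-0.48). On group means PCCA was higher with 6N-10CA than with 6N (0.215), and GK was higher with 10CA than with 6N (0.209). Paired, 4 genes of the list rose and 1 fell in 6N-10CA against 6N, and 2 rose and 1 fell in 10CA against 6N. In the paired fit 2 genes of the list rose and 1 fell with 6N-10CA against DMSO, and 0 passed with DLPC. SLC37A4, the carrier that feeds glucose phosphate to the G6PC enzyme, had 143 ± 5.12 CPM with DLPC, against 134 ± 3.36 CPM with ethanol (adjusted p = 0.487).

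Of 23 tested genes of glucose phosphorylation and glycolysis 1, ALDOC, an aldolase, rose with DLPC on group means (170.0 ± 14.1 CPM, against 129 ± 11.4 CPM with ethanol, log2 fold change 0.40, adjusted p = 0.0454 in edgeR's test), and 7 rose in the paired fit. No gene of that list passed with a small molecule against DMSO on group means, while 4 rose with 6N-10CA in the paired fit. In 6N-10CA against 6N, ALDOC (0.68) and PDK1, a kinase that closes pyruvate dehydrogenase (0.33), were higher, and 13 rose and 1 fell in the paired fit. In 10CA against 6N 0 passed on group means, and 9 rose and 0 fell in the paired fit. Paired, 1 rose and 0 fell in 6N-10CA against 10CA. Of 20 tested glycogen genes, PPP1R3C, a glycogen-targeting subunit of a phosphatase, was higher with 6N-10CA (0.57) and with 10CA (0.54) than with 6N, and 3 rose in the paired fit in each case. No glycogen gene passed against a vehicle on group means, and 5 rose with DLPC and 2 with 6N-10CA in the paired fit.

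Of 32 tested genes of the hormonal control of glucose production, including FOXO1, PPARGC1A, CREB1, INSR and HNF4A, none passed on group means in any comparison. In the paired fit 4 rose and 0 fell with DLPC, 3 rose and 1 fell with 6N-10CA against DMSO, and 0 passed with 10CA against DMSO. Between the small molecules, 1 rose and 1 fell in 6N-10CA against 6N in that fit. It had 3 higher and 0 lower in 6N-10CA against 10CA, and 2 higher and 3 lower in 10CA against 6N. IGFBP1, an insulin-repressed target of FOXO1, had 230.4 ± 94.7 CPM with DLPC, against 144 ± 55.1 CPM with ethanol (log2 fold change 0.68, adjusted p = 0.442, and 0.000279 in the paired fit). PPARGC1A, the coactivator that drives PCK1 and G6PC in fasted liver, had 29.4 ± 3.11 CPM with DLPC, against 23.4 ± 2.04 CPM with ethanol (0.34, adjusted p = 0.293, and 0.00608 in the paired fit). The DLPC libraries of PPARGC1A lay wholly above the ethanol libraries, and those of IGFBP1 overlapped. IGFBP1, PPARGC1A, ARRDC4 and KHK were named after their values were seen.

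**Figure D4:**
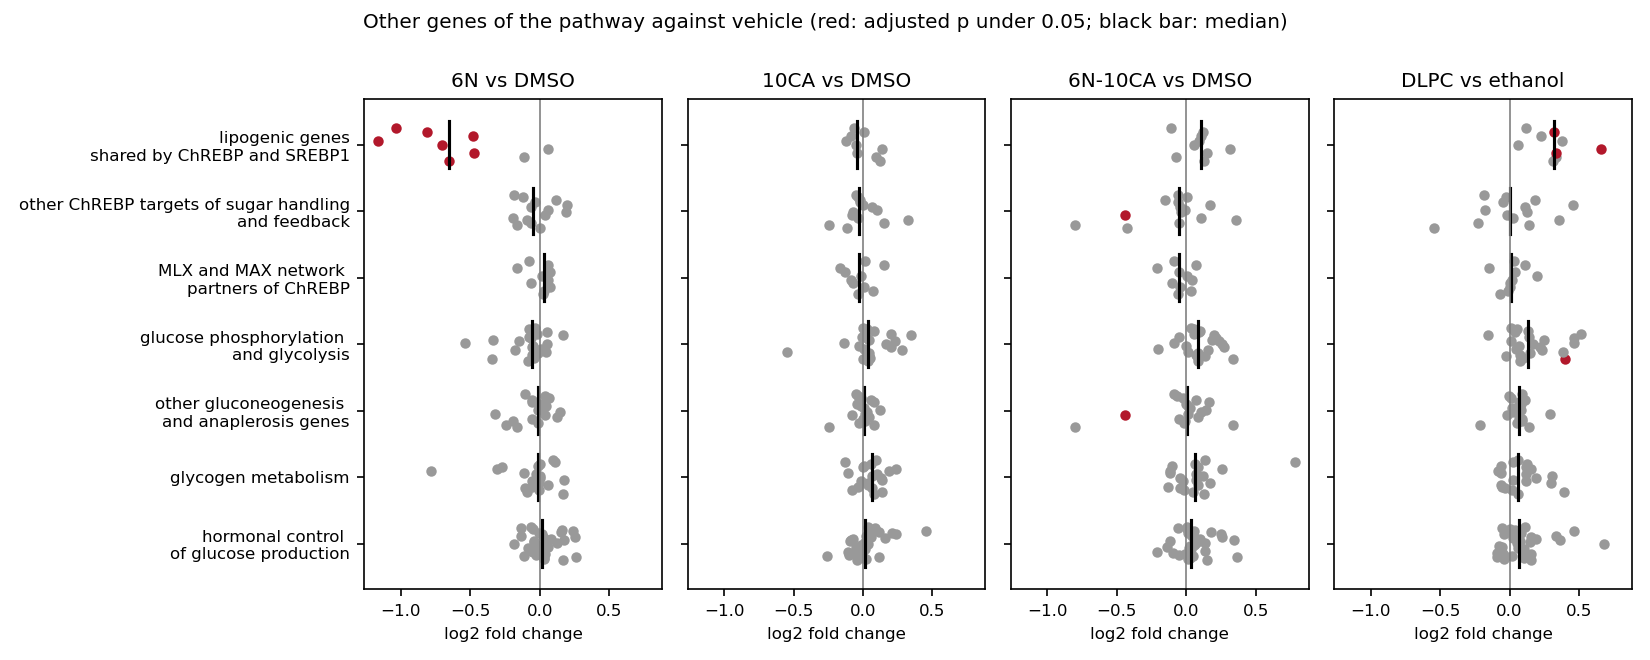
Log2 fold change (horizontal axis) of each tested gene of 7 pathway lists in the 4 comparisons with a vehicle, members of the set of 9 left out. Points are genes, red where the adjusted p was under 0.05, and black bars are list medians. The lipogenic list with 6N stands at a median of -0.65 with 7 of 9 genes in red, and with DLPC at 0.32 with 3 of 9 in red, while the lists of sugar-handling ChREBP targets and of hormonal control have medians between -0.049 and 0.066 in every panel.

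As a description over the 18 libraries, which share depth and the replicate pattern above, the tested genes whose log2 CPM was most like that of PKLR were OPLAH (Pearson r = 0.93), SPOCK2 (0.91) and SLC37A4 (0.91). Those most like SLC2A2 were EPDR1 (0.85), HSP90B1 (0.85) and RNF145 (0.85). As Spearman correlations, in the same order, the values were 0.79, 0.87 and 0.93 for PKLR and 0.66, 0.78 and 0.68 for SLC2A2. With each replicate number centred, the 3 genes most like PKLR were SLC39A4, GPAA1 and PPP6R2. Those most like SLC2A2 were then TFPI, RNF145 and ANXA2. Among the 9 genes, PCK1 and GCKR had r = 0.88, and 0.74 after each replicate number was centred. G6PC and PCK1 had r = 0.66, and 0.37 after centring. PCK1 and TXNIP had 0.36 before and -0.51 after it, so the sign of that value depended on the replicate pattern.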

How the data were processed

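RNA of 18 HepG2 libraries in 6 groups of 3 was sequenced after cDNA amplification and a Nextera XT preparation, per the labels' protocols. The authors' deposited table holds raw counts, 1 row per gene symbol and 35238 rows in all, with no normalization applied. GRCh38 is named as the build and DESeq2 as a tool, per the submitters' processing notes. Aligner, counting tool, annotation and strandedness are not given in the sources that were used. Of the symbols 28 had been turned into dates and were not named.

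Genes kept by filterByExpr of edgeR 4.0.16 in R 4.3.3 (minimum count 10, total 15) numbered 14797 and held 99.96% of counts; all 9 members were among them. A single fit over 18 libraries with 1 mean per group and TMM scaling (factors 0.972 to 1.03, biological coefficient of variation 6.96%) gave two-sided quasi-likelihood tests, adjusted over all tested genes by Benjamini-Hochberg at 0.05. The step was tested on simulated counts with 200 changed genes. Those counts held no effect of replicate number, and the fit with a replicate block was not run on them. Library totals set the precision, and floors cover counting error only. No replicate was a copy of another: the chi-square of any pair within a group was 4.7 to 14.7 per gene, where counting noise gives about 1. Positions and transcript lengths came from GENCODE release 29, promoters from RefSeq on GRCh38.p14, read over the 250 bases before each start.

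The replicate numbers come from the titles. They were taken to pair the libraries of a comparison where deviations from the group means correlated above 0.1 for all 3 numbers. That held in 7 of 8 comparisons, with 6N against DMSO (0.23, 0.09 and 0.14) the exception. Over the series 43 of 45 same-number pairs exceeded 0.1 (median 0.31), and other-number pairs had a median of -0.13. Where the numbers pair, the fit with a replicate block is printed beside a result whose call it changes.

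Alternatives were DESeq2 1.42.0, limma-voom (limma 3.58.1), other scalings and filters, only the groups compared, the other vehicle or both averaged, the replicate block, and leaving out each library. Blocks combined with another vehicle or without 1 replicate number were added after seeing the data. The members, the pathway lists and the rules were chosen with earlier results of these data known. Named genes are the 9 members, list genes that passed (at most 6 a list and comparison by smallest p), and the 3 genes of at least 5 CPM with the highest correlation with each member that varied among the 6 groups; exceptions are stated where they stand.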

Additional observations from a re-analysis of the deposited data

How the results depend on the processing

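Over genes, comparisons and alternatives, 1360 member log2 fold changes were recomputed: 1275 stayed on their reported side of the threshold, 76 newly passed it and 9 no longer did. Of the 76, 66 came from fits with a replicate block, some of them chosen after seeing the data. In 68 of the 1360 the sign changed, in no case past the threshold. Members called came to 0 in DLPC against ethanol with upper-quartile scaling (1 as reported) and with any of its 6 libraries left out (0 to 0), and to 0 in 10CA against 6N with only these groups in the fit. The cause was not tested. Without the low-count filter all 24982 rows with a count were tested. Members were then 1 of 126 genes called (6N-10CA against DMSO), 2 of 329 (DLPC), 1 of 403 (6N-10CA against 6N), 2 of 154 (6N-10CA against 10CA) and 4 of 1411 (6 groups). DESeq2 called 1 of 246 (6N), 1 of 501 (6N-10CA against 6N) and 4 of 1619 (6 groups). In 6N against DMSO there were 1 of 265 with ethanol as vehicle and 2 of 270 with both vehicles averaged. Leaving out single libraries gave 1 to 3 members over the 6 groups, where 416 to 745 genes were called.

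With the replicate block the members called were 2 in 6N against DMSO, where the numbers did not pair by the rule (PCK1 0.37, adjusted p = 0.0386, and SLC2A2 -0.17, adjusted p = 0.0182, edgeR), 2 in 6N-10CA against DMSO, 4 in DLPC, 4 and 3 in 6N-10CA against 6N and 10CA, 3 in 10CA against 6N, and 7 over the 6 groups; the 2 not called there were PCK2 and FBP1. The block changed no other member call. In deviations from group means, and among libraries of other groups only, all 18 libraries correlated best with a library of their own number, a hint from the data and not from the design. The following were chosen after seeing the data. With the block and ethanol as vehicle there were 3 (6N, with 6.64% of all tested genes called), 1 (10CA, 0.669%) and 3 (6N-10CA, 4.09%), with both vehicles averaged 3 (7.22%), 2 (0.858%) and 3 (6.06%), and with DLPC against DMSO or both averaged 4 (11.3%) and 4 (13.1%). With the block and without replicate number 1, 2 or 3, 6N against DMSO gave up to 2, 6N-10CA against DMSO 2, 2 and 2, DLPC 1, 3 and 3, 6N-10CA against 6N 2, 3 and 3, against 10CA 1, 2 and 2, and 10CA against 6N 1, 3 and 2; in these fits 0% to 4.49% of all tested genes were called.

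Counts of all genes called moved more. With the block they were 551 (6N), 32 (10CA), 562 (6N-10CA), 997 (DLPC), 1231 and 349 (6N-10CA against 6N and 10CA), 1133 (10CA against 6N), 18 (ethanol against DMSO) and 3149 (6 groups), against 169, 0, 39, 154, 242, 34, 253, 0 and 774 as reported. DESeq2 gave 13 (10CA), 173 (6N-10CA), 380 (DLPC), 501, 119, 496, 13 and 1619 in the same order, and no filter gave 20, 126, 329, 403, 154, 423, 37 and 1411. With only the groups compared, counts were 13 (6N-10CA against DMSO), 109, 10 and 112 (6N-10CA against 6N, against 10CA, and 10CA against 6N). With the other vehicle they were 265 (6N), 63 (6N-10CA) and 380 (DLPC), and with both averaged 270, 129 and 541. Leaving out single libraries gave 111 to 149 (6N), 0 to 1 (10CA), 12 to 23 (6N-10CA), 56 to 118 (DLPC), 138 to 235, 14 to 28 and 141 to 338 (between small molecules), 0 to 7 (vehicles) and 416 to 745 (6 groups). DESeq2 size factors and limma-voom stayed within 1.5 times the reported count in all 9.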

Other observations

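Lists beside the pathways above gave few calls on group means in edgeR's test. Of 8 tested alpha-arrestins and thioredoxins, the family and the partners of TXNIP, ARRDC3, an arrestin that promotes receptor uptake, was higher with DLPC than with ethanol (17.9 ± 2.42 against 11.8 ± 2.31 CPM, log2 fold change 0.60, SD, n = 3 each). It was also higher with 6N-10CA (0.89) and with 10CA (0.64) than with 6N. Of 10 tested hexose transporters other than SLC2A2, SLC2A14 was higher with 6N-10CA than with DMSO (33.7 ± 2.21 against 24.3 ± 1.94 CPM, log2 fold change 0.47), and SLC2A6 was lower with 6N than with DMSO (34.2 ± 1.37 against 43.9 ± 2.94 CPM, log2 fold change -0.36). SLC2A14 is nearly identical to SLC2A3, and the counting could have divided reads between them. In the paired fit 1 arrestin or thioredoxin passed, and was higher, in each of 6N-10CA against DMSO, DLPC against ethanol, 6N-10CA against 6N and 10CA against 6N. In that fit 1 hexose transporter rose with 10CA and 2 with 6N-10CA against DMSO, 1 rose and 1 fell with DLPC, 3 rose and 1 fell in both 6N-10CA and 10CA against 6N, and 1 rose and 1 fell in 6N-10CA against 10CA.

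Of 21 tested ATF4 targets beside PCK2, SLC7A5, an amino acid transporter, was higher with 6N than with DMSO (log2 fold change 0.20) and TRIB3, a pseudokinase that restrains insulin signalling, was lower (312 ± 4.46 against 369 ± 8.28 CPM, -0.24). TRIB3 was higher with 6N-10CA (0.36) and with 10CA (0.25) than with 6N, and DDIT4 was higher with 6N-10CA than with 6N (0.33). PCK2 had log2 fold changes of -0.039, 0.10 and 0.12 in the same 3 comparisons and passed in none. With replicate numbers paired, 4 ATF4 targets rose with 10CA and 2 with 6N-10CA against DMSO and none fell, while with DLPC 5 fell and none rose. Between the small molecules 2 rose and 2 fell in 6N-10CA against 6N, 0 rose and 4 fell in 6N-10CA against 10CA, and 6 rose and 2 fell in 10CA against 6N.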
